A study of Mus musculus with 10 samples.

Results

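A set of 10 endothelial genes was followed through 4 sorted cell populations of differentiating mouse embryonic stem cells (mESCs). They are the Tie receptor genes Tek and Tie1, the junction and surface genes Cdh5, Esam, Pecam1, Cldn5, Icam2 and Emcn, the secreted factor gene Egfl7, and the receptor partner gene Ramp2. They were taken by name, as the rows of the count files whose Ensembl identifier carries one of these symbols in GENCODE M21, and make up 10 of the 38924 genes counted. RNA sequencing covered 10 samples, all isolated by flow sorting at day 5 from Foxa2-hCD4 cells, a single mESC line that carries a truncated human CD4 in the Foxa2 locus, whose staining reports Foxa2 expression.

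Foxa2+ cardiac mesoderm (Foxa2+ CM, n = 3) was Kdr+ Pdgfra+ hCD4+ and Foxa2- cardiac mesoderm (Foxa2- CM, n = 3) was Kdr+ Pdgfra+ hCD4-. The samples labelled Flk1+ high (n = 2) came from the same cardiac protocol, with Activin A at 8 ng/ml, and are the Kdr-high cells that the study treats as haematopoietic mesoderm. The endoderm samples (n = 2) were Kdr- Pdgfra- hCD4+ and came from endoderm cultures given Activin A at 75 ng/ml. The cardiac cultures were also given vascular endothelial growth factor and BMP4, while the endoderm cultures are described with Activin A alone. In comparisons with endoderm, cell type and culture factors thus cannot be told apart. Flk1 is another name for Kdr, the receptor for vascular endothelial growth factor. All groups carry the same Foxa2 reporter allele, there is no wild-type line among them, and the sources do not say whether samples came from separate cultures, so the p-values measure only the spread between these samples, which may be technical.

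Endothelial cells line blood vessels and the inside of the heart, and in the embryo they arise from Kdr-expressing mesoderm, from which the first blood cells also come. Tek (Tie2) is the receptor for the angiopoietins and Tie1 is a related receptor that pairs with it, while the phosphatase Ptprb removes phosphate from Tek. VE-cadherin, encoded by Cdh5, holds endothelial cells together at adherens junctions, where it binds catenins, and Cldn5, Esam and Pecam1 add tight junction and immunoglobulin-type contacts.

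For 5 of the 10 genes (Tek, Tie1, Egfl7, Emcn and Cldn5) a promoter window, 250 bases before to 50 bases after a transcription start, was held in the RefSeq sequences for GRCm38.p6; Cdh5, Esam, Pecam1, Ramp2 and Icam2 had no entry. ETS factors such as Etv2, Erg and Fli1 are regulators of endothelial genes and bind a core around GGAA, so CGGAAG and AGGAAG were searched on both strands. They occurred in 4 of the 7 windows of these genes and in 46.5% of all 32851 windows of this length, and a match is a stretch of letters, not a shown binding site. The windows of both Tie receptor genes are given for comparison, with 1 of the Egfl7 starts and with Emcn, the gene that was silent here. They are written 5′ to 3′ on the strand of the gene, with ETS matches on either strand in capitals. The positions are chr4:94739039-94739338 on the plus strand for Tek, chr4:118489800-118490099 on the minus strand for Tie1, chr2:26583615-26583914 on the plus strand for Egfl7 and chr3:137340828-137341127 on the plus strand for Emcn.
Tek: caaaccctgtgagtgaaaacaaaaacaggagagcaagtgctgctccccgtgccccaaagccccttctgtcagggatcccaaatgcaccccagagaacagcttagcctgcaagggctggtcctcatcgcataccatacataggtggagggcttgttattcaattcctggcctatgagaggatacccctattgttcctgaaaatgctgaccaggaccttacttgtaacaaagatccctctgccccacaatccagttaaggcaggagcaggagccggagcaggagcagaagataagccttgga
Tie1: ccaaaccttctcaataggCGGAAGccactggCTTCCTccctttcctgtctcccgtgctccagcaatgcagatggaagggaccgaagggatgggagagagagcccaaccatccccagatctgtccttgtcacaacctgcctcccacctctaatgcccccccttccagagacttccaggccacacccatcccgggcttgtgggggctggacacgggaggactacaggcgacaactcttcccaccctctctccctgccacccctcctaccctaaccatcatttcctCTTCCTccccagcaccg
Egfl7: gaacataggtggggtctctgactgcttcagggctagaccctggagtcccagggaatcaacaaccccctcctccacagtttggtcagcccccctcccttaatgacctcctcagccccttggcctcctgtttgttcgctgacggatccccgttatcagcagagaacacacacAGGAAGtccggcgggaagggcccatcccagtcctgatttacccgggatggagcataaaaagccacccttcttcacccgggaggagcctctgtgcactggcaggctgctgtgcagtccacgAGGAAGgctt
Emcn: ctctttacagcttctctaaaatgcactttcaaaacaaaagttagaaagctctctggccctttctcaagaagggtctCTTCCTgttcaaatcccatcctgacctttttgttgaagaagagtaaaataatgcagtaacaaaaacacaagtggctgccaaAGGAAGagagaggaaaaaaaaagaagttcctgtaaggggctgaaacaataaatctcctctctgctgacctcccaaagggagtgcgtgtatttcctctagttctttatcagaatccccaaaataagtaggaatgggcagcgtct
The Tie1 window held 3 matches, the Egfl7 window 2 and the Emcn window 2, and the Tek window held none. The GATA letters AGATAA and TGATAA were found in 3 of the 7 windows against 18.6% of all windows, with 1 match each in Tek, Egfl7 and Emcn. The E-box CANNTG was found in 6 of 7 against 72.3%, and the Sox letters ACAAAG and ACAATG in 2 of 7 against 28.6%. Emcn, with almost no reads in any sample, thus held the same kinds of letters as genes that were expressed.

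Counts on genes totalled between 10926284 and 17470126 per sample, so that 3 counts stood at 0.172 to 0.275 counts per 1000000 reads on genes (CPM), a floor that covers counting error only. Replicates differed from each other by more than sampling noise, their chi-square statistic being 3.72 to 21.5 times its degrees of freedom. The sorting markers followed the labels at the level of groups. Kdr stood at 554 and 592 CPM in Flk1+ high cells, between 353 and 440 CPM in the 6 cardiac mesoderm samples, and at 6.24 and 9.94 CPM in endoderm. Pdgfra stood between 201 and 306 CPM in cardiac mesoderm against 34.3 and 23.8 CPM in Flk1+ high cells. Foxa2 was at 20.01, 16.0 and 3.49 CPM in Foxa2+ CM replicates 1, 2 and 3, against 2.54, 0.872 and 0.902 CPM in Foxa2- CM, so that Foxa2+ CM replicate 3 stood apart from the others of its group, and the groups differed by 3.18 on the log2 scale (adjusted p = 0.0353 by edgeR). Summed endoderm markers (9 genes) stood at 1454 and 1560 CPM in endoderm against 76.5 to 121 CPM elsewhere, and summed cardiac mesoderm markers (9 genes) at 725 to 1021 CPM in cardiac mesoderm against 126 to 374 CPM elsewhere. Summed pluripotency markers (5 genes) stood at 373 and 370 CPM in endoderm and between 34.5 and 119 CPM elsewhere. Foxa2- CM replicate 3 stood apart in the endothelial genes themselves.

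Of the Tie receptors, Tek (ENSMUSG00000006386.9), which spans chromosome 4 from 94739289 to 94874976 on the plus strand of mm10, stood at 135 and 245 CPM in the Flk1+ high samples. It was at 3.65, 7.63 and 14.9 CPM in Foxa2+ CM replicates 1, 2 and 3, at 1.92, 3.25 and 30.6 CPM in Foxa2- CM, and at 1.12 and 1.17 CPM in endoderm. Both Flk1+ high samples were above every other sample, and the highest of the rest was Foxa2- CM replicate 3. The log2 fold change of Flk1+ high cells was 4.42 against Foxa2+ CM (standard error 0.96, adjusted p = 0.0101 by edgeR), 3.96 against Foxa2- CM (standard error 0.93, adjusted p = 0.0156 by edgeR) and 7.36 against endoderm (standard error 1.43, adjusted p = 0.00374 by edgeR).

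Tie1 (ENSMUSG00000033191.8), also on chromosome 4 but from 118471191 to 118490061 on the minus strand, was at 78.3 and 162 CPM in Flk1+ high cells. Foxa2+ CM samples stood at 0.803, 1.04 and 3.38 CPM and Foxa2- CM samples at 0.247, 0.397 and 18.5 CPM, the last again being replicate 3. No read of Tie1 was counted in either endoderm sample. With the floor of 3 counts set over the endoderm group, Tie1 was at least 909.7-fold higher in Flk1+ high cells than in endoderm, at least 13.2-fold higher in Foxa2+ CM and at least 48.3-fold higher in Foxa2- CM. Without replicate 3 of each cardiac mesoderm group, these last bounds were 6.98-fold and 2.44-fold. Against cardiac mesoderm, the log2 fold change of Flk1+ high cells was 6.06 for Foxa2+ CM (standard error 1.39, adjusted p = 0.0156 by edgeR) and 4.19 for Foxa2- CM (standard error 1.24, adjusted p = 0.044 by edgeR). Both receptor genes were thus highest in Flk1+ high cells and lowest in endoderm.

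**Figure D1:**
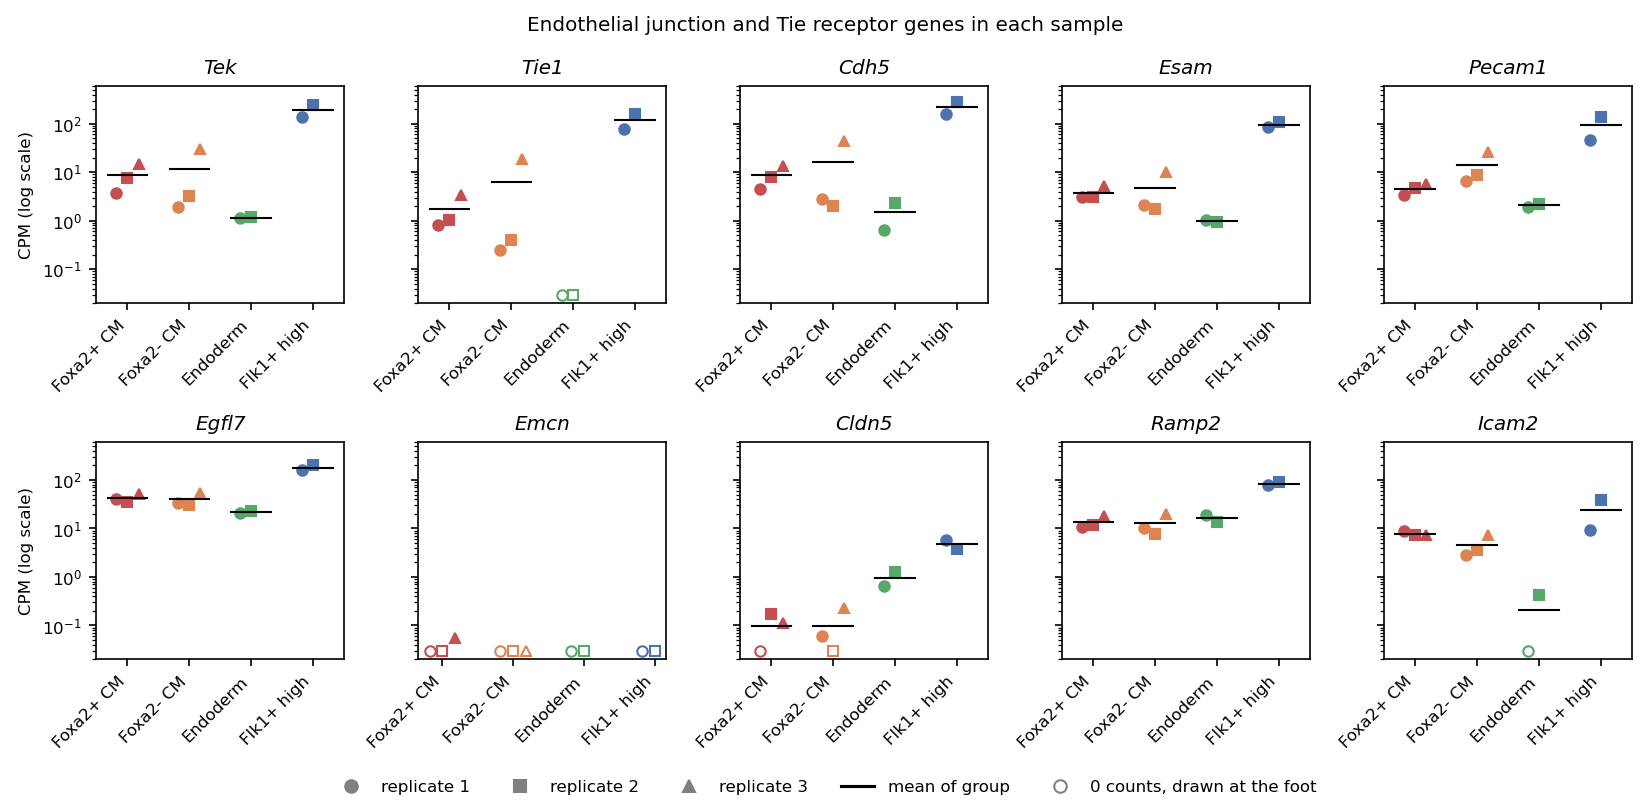
CPM of each of the 10 genes (log axis) in every sample of the 4 sorted groups, with a shape for each replicate number, a line at the group mean and open symbols at the foot of the axis for samples with 0 counts. Flk1+ high samples are highest for every gene but Emcn, and the Foxa2- CM triangle (replicate 3) sits above its group for Tek (30.6 CPM), Tie1 (18.5 CPM) and Cdh5 (43.4 CPM).

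Among the junction genes, Cdh5 (ENSMUSG00000031871.8, chromosome 8 from 104101625 to 104144511, plus strand) was at 158 and 275 CPM in Flk1+ high cells. It stood at 4.53, 7.80 and 13.6 CPM in Foxa2+ CM, at 2.85, 1.98 and 43.4 CPM in Foxa2- CM and at 0.652 and 2.34 CPM in endoderm. Flk1+ high cells did not overlap with any other group. Its difference was 4.63 on the log2 scale against Foxa2+ CM (standard error 1.06, adjusted p = 0.0129 by edgeR) and 3.72 against Foxa2- CM (standard error 1.01, adjusted p = 0.0278 by edgeR).

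Esam (ENSMUSG00000001946.7, chromosome 9 from 37528078 to 37538319, plus strand), an immunoglobulin-type molecule of tight junctions, was at 85.3 and 107 CPM in Flk1+ high cells. Cardiac mesoderm stood at 3.07, 3.06 and 5.24 CPM in Foxa2+ CM and 2.10, 1.75 and 10.2 CPM in Foxa2- CM, and endoderm at 1.02 and 0.919 CPM. Its 2 Flk1+ high samples lay close together, and the standard error of the log2 fold change against Foxa2+ CM, which was 4.65, came to 0.62 (adjusted p = 0.00109 by edgeR). Pecam1 (ENSMUSG00000020717.13, chromosome 11 from 106654217 to 106750628, minus strand), the CD31 antigen of endothelial contacts, was at 46.6 and 138 CPM in Flk1+ high cells. It was at 3.43, 4.63 and 5.75 CPM in Foxa2+ CM, at 6.50, 8.80 and 26.7 CPM in Foxa2- CM and at 1.96 and 2.17 CPM in endoderm. Unlike Tek, Tie1 and Cdh5, Pecam1 was higher in each Foxa2- CM sample than in each Foxa2+ CM sample.

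Cldn5 (ENSMUSG00000041378.1, chromosome 16 from 18776847 to 18778262, plus strand), the claudin of endothelial tight junctions, was counted at only 94 and 49 reads in Flk1+ high cells, which is 5.89 and 3.86 CPM. Endoderm samples had 0.652 and 1.25 CPM, and the 6 cardiac mesoderm samples had between 0 and 4 reads each. Its fitted log2 fold change against Foxa2+ CM, 5.47, thus rested on a group of 5 reads in all. Cldn5 is the junction gene whose second-highest group was endoderm. Icam2 (ENSMUSG00000001029.9, chromosome 11 from 106377656 to 106388075, minus strand), an adhesion molecule on the endothelial surface that leukocytes bind, was at 9.34 and 38.2 CPM in Flk1+ high cells. Foxa2+ CM samples stood at 8.91, 7.17 and 7.21 CPM, Foxa2- CM samples at 2.78, 3.65 and 7.39 CPM and endoderm samples at 0 and 0.418 CPM. The lower Flk1+ high sample lay just above Foxa2+ CM replicate 1, and the difference between these groups did not pass the test (log2 fold change 1.61, standard error 0.59, adjusted p = 0.0816 by edgeR). Emcn (ENSMUSG00000054690.11, chromosome 3 from 137341067 to 137432185, plus strand), the endothelial sialomucin endomucin, had 1 read in 10 samples, in Foxa2+ CM replicate 3, and was not tested.

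Egfl7 (ENSMUSG00000026921.12, chromosome 2 from 26580014 to 26593120, plus strand) encodes a protein that endothelial cells secrete into their matrix. It had the highest level per length of the members in both kinds of cardiac mesoderm. It was at 40.5, 35.8 and 50.4 CPM in Foxa2+ CM, at 33.5, 31.1 and 54.8 CPM in Foxa2- CM, at 20.7 and 23.0 CPM in endoderm and at 158 and 202 CPM in Flk1+ high cells. The groups did not overlap except for the 2 kinds of cardiac mesoderm, and the difference from Foxa2+ CM was 2.09 on the log2 scale (standard error 0.24, adjusted p = 5e-04 by edgeR). Egfl7 shares 64 exonic bases with the opposite-strand gene Agpat2 and hosts the miR-126 precursor on its own strand, and as the kit does not mark strand, reads in shared bases cannot be told apart.

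Ramp2 (ENSMUSG00000001240.7, chromosome 11 from 101246028 to 101259546, plus strand), which turns the receptor Calcrl into a receptor for adrenomedullin, was at 79.8 and 89.3 CPM in Flk1+ high cells. It was at 10.7, 11.6 and 17.7 CPM in Foxa2+ CM, at 10.4, 7.53 and 20.2 CPM in Foxa2- CM and at 18.8 and 13.5 CPM in endoderm, so that endoderm and both kinds of cardiac mesoderm overlapped. Its gene model runs over Vps25 on the same strand, with 1103 shared exonic bases, so its reads per length are uncertain. The log2 fold change of Flk1+ high cells against Foxa2+ CM was 2.66 (standard error 0.36, adjusted p = 0.00122 by edgeR).

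Over the whole set, 9 of the 10 genes had enough reads to be tested among 16180 genes. Against Foxa2+ CM, 8 of 9 (7 of 8 without Cldn5) were higher in Flk1+ high cells at an adjusted p under 0.05, where 11.6% of all genes tested were higher and 22.8% differed in either direction. Against Foxa2- CM, 9 of 9 (8 of 8 without Cldn5) were higher (11.3% of all genes higher, 21.6% in either direction), and against endoderm 9 of 9 (8 of 8 without Cldn5) were higher (16.2% higher, 32.6% in either direction). These 3 comparisons share the Flk1+ high samples. The median log2 fold change of the members was 4.42, 3.72 and 6.62 in this order, beside 0.03, 0.02 and 0.00 over all genes tested. Both Flk1+ high samples were above all 8 other samples for each of the 9 tested members (8 of 8 without Cldn5), as they were for 12.3% of all genes. Cldn5, with at most 4 reads in any cardiac mesoderm sample, passed the expression filter through the other groups and so had to differ from cardiac mesoderm. Its reads were most in Flk1+ high cells (94 and 49, against 7 and 15 in endoderm), so its call against endoderm is not independent of the filter either. Emcn failed the filter. In bulk samples, fewer cells of a type and less RNA per cell cannot be told apart.

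Several of these calls depended on single libraries, while the direction did not change for any of the 9 genes in any of the 10 fits that left out 1 sample. Against Foxa2+ CM, leaving out Foxa2+ CM replicate 1 or 2 raised the adjusted p of Tie1 to 0.0697 and 0.0676 and that of Cdh5 to 0.0598 and 0.0554 by edgeR, and leaving out Flk1+ high replicate 1 brought Icam2 to 0.0105 (log2 fold change 2.30) while leaving out replicate 2 brought it to 0.829 (0.24). Against Foxa2- CM, Tie1 kept its call in 2 of the 10 fits, with a highest adjusted p of 0.151 by edgeR without Flk1+ high replicate 2. Without that same library, Tek (0.0649), Cdh5 (0.104), Pecam1 (0.0976) and Icam2 (0.289) also missed the threshold, as did Cdh5 (0.0788) and Icam2 (0.0902) without Foxa2- CM replicate 1, and Tek (0.0559), Cdh5 (0.0689) and Icam2 (0.088) without replicate 2 of that group. Against endoderm, Tie1 (0.0565), Cdh5 (0.0567) and Cldn5 (0.0963) missed it without endoderm replicate 1, and Tie1 (0.0603) without endoderm replicate 2. Leaving out Foxa2- CM replicate 3 instead raised the log2 fold changes against Foxa2- CM, from 3.96 to 6.22 for Tek, from 4.19 to 8.54 for Tie1, from 3.72 to 6.46 for Cdh5 and from 2.71 to 3.6 for Pecam1. Without Foxa2+ CM replicate 3 those against Foxa2+ CM came to 5.05 for Tek, 7.0 for Tie1 and 5.12 for Cdh5, and the same 8 genes passed. Esam, Egfl7 and Ramp2 passed in all 10 fits of each of these 3 comparisons.

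**Figure D2:**
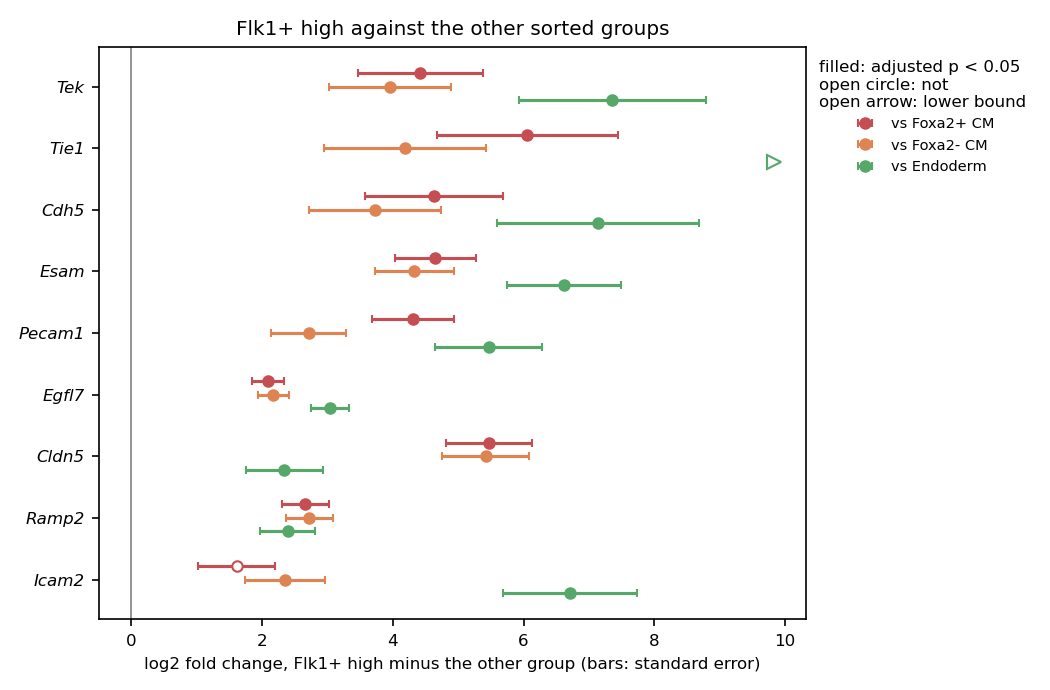
Log2 fold changes of Flk1+ high cells against Foxa2+ CM, Foxa2- CM and endoderm for the 9 tested genes, with bars of 1 standard error. Filled circles pass an adjusted p of 0.05, the open circle is Icam2 against Foxa2+ CM (1.61), and the open arrow marks the lower bound for Tie1 against endoderm, where no read was counted. Every value lies above 0.

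The 2 Flk1+ high samples themselves differed. Replicate 2 was 4.09 times replicate 1 for Icam2, 2.96 times for Pecam1, 2.07 times for Tie1, 1.82 times for Tek and 1.74 times for Cdh5. This made 5 of the 9 tested members at least 1.5-fold higher in replicate 2, beside 7.97% of all genes tested. Egfl7 (1.28 times), Esam (1.25 times) and Ramp2 (1.12 times) differed less, and Cldn5 ran the other way at 0.654 times. Blood cell markers differed along with them only in part: Hbb-bh1, an embryonic globin, was at 2.95 and 23.2 CPM in replicates 1 and 2, while Gata1, a red cell and megakaryocyte regulator, was at 58.2 and 50.9 CPM and the summed level of the 12 blood markers was 560 and 603 CPM. The 9 cardiac mesoderm markers also moved, with summed levels of 189 and 374 CPM in replicates 1 and 2. The part of either list in the spread of the endothelial genes was not tested.

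Per kilobase of exon, Cdh5 (51.5 ± 19.6 CPM per kb, SD, n = 2) and Egfl7 (50.2 ± 8.64) had the highest levels of the members in Flk1+ high cells, followed by Tek (40.3 ± 16.5), Esam (33.5 ± 5.35), Ramp2 (25.6 ± 2.04), Tie1 (24.4 ± 12.1), Pecam1 (14.8 ± 10.4), Icam2 (12.5 ± 10.7) and Cldn5 (3.44 ± 1.02). The means of neighbours in this order differed by less than the larger of their SDs, except for Esam and Ramp2, whose means lay farther apart than either SD. As the gene model of Ramp2 shares 1103 exonic bases with Vps25, its place in this order and in those below is uncertain. In cardiac mesoderm Egfl7 led instead, at 11.8 ± 2.08 CPM per kb (SD, n = 3) in Foxa2+ CM and 11.1 ± 3.64 in Foxa2- CM. Next in Foxa2+ CM came Icam2 (4.08 ± 0.521), Ramp2 (4.04 ± 1.15), Cdh5 (2.06 ± 1.09) and Tek (1.85 ± 1.21), of which neither Icam2 and Ramp2 nor Cdh5 and Tek differed beyond their spread. Tie1, at 0.354 ± 0.290 CPM per kb in Foxa2+ CM, was the lowest member there apart from Cldn5 and Emcn.

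Between endoderm and cardiac mesoderm, 3 of 9 members passed against Foxa2+ CM and 4 of 9 against Foxa2- CM, beside 35% and 30.1% of all genes. The median log2 fold change of the members was -1.97 and -2.76 in this order, beside 0.01 over all genes tested in each. Against Foxa2+ CM, Egfl7 (log2 fold change -0.95, standard error 0.26, adjusted p = 0.0176 by edgeR) and Icam2 (-5.09, standard error 1.00, adjusted p = 0.00379 by edgeR) were lower in endoderm, while 6 of 9 did not pass. Cldn5 was fitted as higher by 3.14 on the log2 scale, but it entered the model only through the groups where it is high. That is 2 of 9 lower and, with Cldn5, 1 of 9 higher, where 16.7% of all genes were lower, 18.3% higher and 35% in either direction. Against Foxa2- CM the same 3 genes passed in the same directions and Pecam1 was also lower (log2 fold change -2.76, standard error 0.75, adjusted p = 0.0216 by edgeR, and -1.88 with adjusted p = 0.0368 without Foxa2- CM replicate 3), making 3 lower and 1 higher of 9, with 14% of all genes lower, 16.1% higher and 30.1% in either direction. Ramp2 was at 16.2 ± 3.72 CPM in endoderm (SD, n = 2) and 13.4 ± 3.79 CPM in Foxa2+ CM (SD, n = 3), with a log2 fold change of 0.27 and a standard error of 0.38 (adjusted p = 0.61 by edgeR).

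How many members passed as lower in endoderm than in Foxa2+ CM depended on Foxa2- CM replicate 3, which enters the spread of the 10-sample model. Against Foxa2- CM, 4 of 9 members passed in either direction both with and without that library. Without that library alone, Tek, Tie1, Cdh5 and Esam also passed as lower in endoderm than in Foxa2+ CM, with adjusted p of 0.0125, 0.0237, 0.0147 and 0.00243 by edgeR. In that fit 7 of 9 members differed from Foxa2+ CM in either direction, as did 5700 of 15931 genes. Without Foxa2- CM replicate 3 the log2 fold changes against Foxa2- CM shrank to -1.14 for Tek, -0.67 for Cdh5, -0.99 for Esam, -0.57 for Egfl7 (adjusted p = 0.0491 by edgeR) and -3.82 for Icam2 (adjusted p = 0.0242 by edgeR). Without both cardiac mesoderm samples numbered 3, an alternative chosen after the values were seen, 7 of 9 members differed from Foxa2+ CM (29.4% of all genes) and 6 of 9 from Foxa2- CM (24.2%). These counts and the 7 of 9 above include Cldn5, which entered the model only through the groups where it is high. Against Foxa2+ CM, Egfl7 missed the threshold without Foxa2+ CM replicate 3 (0.0528), endoderm replicate 1 (0.118) or endoderm replicate 2 (0.0737), and Cldn5 without endoderm replicate 2 (0.115). Against Foxa2- CM, leaving out endoderm replicate 1 ended the calls of Pecam1 (0.126), Egfl7 (0.166) and Icam2 (0.0779), leaving out endoderm replicate 2 those of Pecam1 (0.113), Egfl7 (0.11) and Cldn5 (0.138), and leaving out Foxa2- CM replicate 1 that of Cldn5 (0.0626), while without Foxa2- CM replicate 1 or 2 Esam passed as lower (0.0437 and 0.0351), as did Tek (0.0471) without replicate 1.

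Foxa2+ and Foxa2- cardiac mesoderm were compared over their 6 samples and 15284 genes. None of the 8 members tested passed (0 of 8, where 6.48% of all genes passed), and 1 of them, Pecam1, had an unadjusted p under 0.05. The mean of Pecam1 was 4.601 ± 1.16 CPM over the 3 Foxa2+ CM samples and 14.0 ± 11.04 CPM over the 3 Foxa2- CM samples (± SD), and its difference of -1.61 on the log2 scale had a standard error of 0.52 and an adjusted p of 0.13 by edgeR. Its adjusted p was 0.0121 with DESeq2, which called this 1 member. With replicate number added to the edgeR model, Pecam1 passed as well (log2 fold change -1.46, adjusted p = 0.00138 by edgeR). That was 1 of 8 members, where 2556 of 15284 genes passed. In the model without replicate number, the other log2 fold changes ran from -1.88 for Tie1 (standard error 1.34) to 0.74 for Icam2 (standard error 0.35), with standard errors of 0.95 for Tek, 1.03 for Cdh5, 0.64 for Esam, 0.23 for Egfl7 and 0.36 for Ramp2.

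The sign of the difference depended on the samples numbered 3. For replicate numbers 1 and 2, Tek was higher in the Foxa2+ CM sample than in the Foxa2- CM sample of the same number (3.65 against 1.92 and 7.63 against 3.25 CPM), and for number 3 it was lower (14.9 against 30.6 CPM). Tie1, Cdh5 and Esam followed the same pattern, at 0.803 against 0.247 and 1.04 against 0.397 CPM but 3.38 against 18.5 CPM for Tie1, and at 4.53 against 2.85 and 7.80 against 1.98 CPM but 13.6 against 43.4 CPM for Cdh5. With both samples numbered 3 left out, an alternative chosen after the values were seen, 5 of 8 members passed, where 17.4% of all genes did. Tek (log2 fold change 1.19, adjusted p = 0.000359 by edgeR), Tie1 (1.56, adjusted p = 0.0156 by edgeR), Cdh5 (1.36, adjusted p = 2.02e-05 by edgeR) and Icam2 (1.34, adjusted p = 4.05e-06 by edgeR) were then higher in Foxa2+ CM and Pecam1 was lower (-0.89, adjusted p = 0.00268 by edgeR). With Foxa2- CM replicate 3 alone left out, Cdh5 (1.84, adjusted p = 0.0246 by edgeR) and Icam2 (1.29, adjusted p = 0.00582 by edgeR) passed, 2 of 8 where 11% of all genes did.

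**Figure D3:**
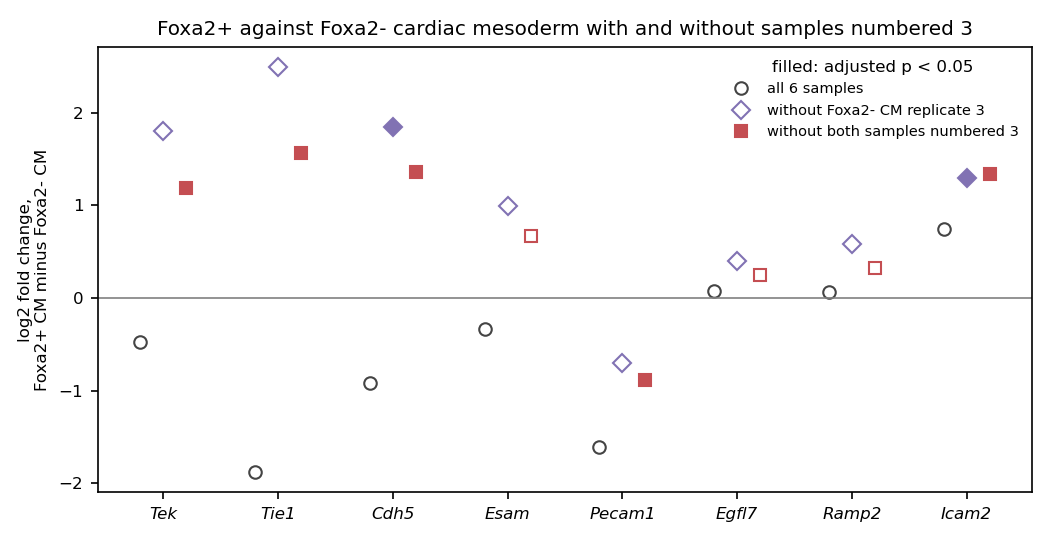
Log2 fold change of Foxa2+ CM against Foxa2- CM for 8 genes with all 6 samples (circles), without Foxa2- CM replicate 3 (diamonds) and without both samples numbered 3 (squares), filled where the adjusted p is under 0.05. Tek, Tie1, Cdh5 and Esam change sign (Tie1 from -1.88 to 2.49 and 1.56), and Pecam1 stays below 0 and Icam2 above 0 in all 3.

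The cardiac mesoderm samples were also compared by replicate number. In a model with group and replicate number over the 6 samples, 7 of the 8 tested members differed between replicate numbers, where 7.66% of 15284 genes did. The labels do not say that a number marks a shared culture or day. The largest range between numbers was that of Tie1 (4.27 on the log2 scale, adjusted p = 0.00284 by edgeR), then Tek (3.07, adjusted p = 0.00203 by edgeR) and Cdh5 (2.93, adjusted p = 0.0105 by edgeR). With DESeq2, Tie1 (adjusted p = 0.114) and Cdh5 (adjusted p = 0.251) did not pass. Esam (1.63), Pecam1 (1.56), Ramp2 (0.99) and Egfl7 (0.67) also passed by edgeR, and Icam2 did not (0.52, adjusted p = 0.521 by edgeR). Without Foxa2- CM replicate 3, Tek, Tie1, Cdh5, Egfl7 and Ramp2 still differed between numbers, with adjusted p of up to 0.0474 by edgeR, while Esam (0.286) and Pecam1 (0.303) did not pass; Icam2 passed without Foxa2+ CM replicate 1 (0.00833) or replicate 3 (0.000855).

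Foxa2- CM replicate 3 was the highest of the 6 samples for 7 of the 8 tested members, and for Cldn5 as well, where 17.2% of all genes tested were highest in it. Against the mean of replicates 1 and 2 of its group it was 57.4-fold higher for Tie1, 18.0-fold for Cdh5 and 11.8-fold for Tek. The Tie1 ratio rests on 4 and 5 reads in replicates 1 and 2, near the floor, so its size is uncertain. The ratio was 5.28 for Esam, 3.49 for Pecam1, 2.30 for Icam2, 2.25 for Ramp2 and 1.70 for Egfl7, so 7 of the 8 tested members were at least 2-fold higher where 3.54% of all genes were. Foxa2+ CM replicate 3 showed smaller ratios, 3.67 for Tie1, 2.65 for Tek and 2.20 for Cdh5, so that these 3 of 8 were at least 2-fold higher where 1.85% of all genes were. Icam2 stood at 0.897 there.

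**Figure D4:**
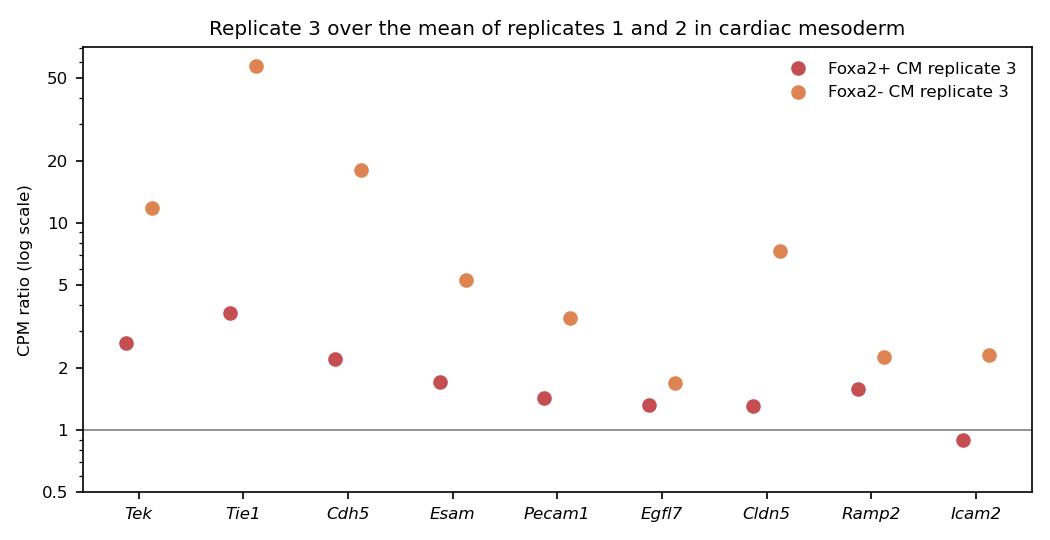
Ratio of the CPM of replicate 3 to the mean of replicates 1 and 2 (log axis) for the 9 genes other than Emcn, in Foxa2+ CM and Foxa2- CM, with a line at 1. Foxa2- CM lies above Foxa2+ CM for every gene, from 1.70 for Egfl7 to 57.4 for Tie1. Its Cldn5 point rests on 4 reads, and its Tie1 point on 4 and 5 reads in replicates 1 and 2.

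Set against Flk1+ high cells, the excess of Foxa2- CM replicate 3 over replicates 1 and 2 was 15.0% of the Flk1+ high excess for Tek, 15.2% for Tie1, 19.1% for Cdh5, 14.8% for Ramp2, 15.3% for Egfl7, 8.73% for Esam, 22.4% for Pecam1 and 20.3% for Icam2. Blood cell markers moved with it. Their summed level over 12 genes was 192 CPM in Foxa2- CM replicate 3, against 78.9 and 93.9 CPM in replicates 1 and 2. It was 110, 148 and 198 CPM in Foxa2+ CM. Of the 6 tested, 4 differed between replicate numbers, where 7.66% of all genes did. Hbb-bh1 stood at 3.21 CPM in Foxa2- CM replicate 3 against 0.186 and 0.159 CPM in the other samples of that group, and Gfi1b, a regulator of red cells and platelets, at 5.53 against 0.371 and 0.476 CPM. Of the defining markers, Hba-x was at 0 in all 10 samples and Ptprc, the pan-leukocyte CD45 gene, was at 0.113 CPM or less in all of them. Whether other cells in the sorted sample contributed was not tested. Other markers differed there as well. The cardiac mesoderm marker Mesp1 was at 23.2 CPM in Foxa2- CM replicate 3 against 61.9 and 62.9 CPM, and Tbx20 was at 226.7 CPM against 123 and 164 CPM. The summed cardiac mesoderm markers were at 969 CPM against 927 and 1021 CPM, and the summed pluripotency markers at 81.3 CPM against 111 and 119 CPM. The sorting markers Pdgfra (259 CPM against 293 and 306 CPM) and Kdr (432 CPM against 391 and 440 CPM) stood closer together.

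Partners of the members were read from gene lists chosen with earlier results of these data known. Of 6 tested partners of Tie signalling, 2 were higher and 1 lower in Flk1+ high cells than in Foxa2+ CM, with a median log2 fold change of -0.19. Over all genes tested, 11.6% were higher and 22.8% differed in either direction. Ptprb was at 161 and 148 CPM in Flk1+ high cells, above 17.5, 23.7 and 37.8 CPM in Foxa2+ CM, and was higher by 2.55 on the log2 scale (standard error 0.39, adjusted p = 0.00197 by edgeR). Foxo1, a transcription factor that Tek signalling restrains, was highest in endoderm, at 115 and 104 CPM, against 49.0 and 74.7 CPM in Flk1+ high cells. In Flk1+ high cells it was higher than in Foxa2+ CM by 1.33 on the log2 scale (standard error 0.19, adjusted p = 0.00129 by edgeR). The ligand gene Angpt2 was lower, at 1.76 and 1.57 CPM against 6.79, 5.32 and 4.56 CPM, a difference of -1.73 on the log2 scale (standard error 0.29, adjusted p = 0.00292 by edgeR). Angpt1, which encodes the activating ligand, was between 0 and 1.79 CPM in all 10 samples and did not pass (adjusted p = 0.198 by edgeR), and Angpt4 was between 0 and 0.511 CPM. The receptor genes were thus high in samples in which Angpt1, Angpt2 and Angpt4 stood at 1.76 CPM or less.

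Junction partners included the catenins and the scaffold proteins of tight junctions. Of 19 tested, 5 were higher and 2 lower in Flk1+ high cells than in Foxa2+ CM. Of all genes tested, 11.6% were higher and 22.8% differed in either direction. The median log2 fold change of these partners was 0.17, beside 0.03 over all genes. Ctnnb1, Ctnna1 and Ctnnd1, the catenins that VE-cadherin binds, did not pass. Among those that passed, the largest changes were those of Rasip1, an endothelial partner of Ras-family switches (log2 fold change 3.25, adjusted p = 0.00314 by edgeR), Jam2 (-2.13, adjusted p = 0.02 by edgeR), Ocln (1.60, adjusted p = 0.0369 by edgeR) and Heg1 (1.29, adjusted p = 0.0448 by edgeR). Heg1 stood at 67.2 CPM in Flk1+ high replicate 1 and 18.9 CPM in replicate 2, and Ocln was highest in endoderm, at 23.8 and 27.7 CPM.

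The adrenomedullin axis around Ramp2 held no passing gene among 5 tested in Flk1+ high cells against Foxa2+ CM, where 22.8% of all genes passed. Calcrl, the receptor that Ramp2 accompanies, was at 48.5 and 163 CPM in Flk1+ high cells, at 21.8, 34.2 and 41.4 CPM in Foxa2+ CM, at 6.93, 8.80 and 25.8 CPM in Foxa2- CM and at 1.68 and 1.00 CPM in endoderm. Its difference passed against Foxa2- CM (2.92 on the log2 scale, standard error 0.61, adjusted p = 0.00869 by edgeR) and not against Foxa2+ CM (1.70, standard error 0.59, adjusted p = 0.065 by edgeR). Adm, which encodes the ligand, was at 1.00 and 2.83 CPM in Flk1+ high cells and between 3.04 and 5.78 CPM in cardiac mesoderm (against Foxa2+ CM, adjusted p = 0.067 by edgeR). Ramp2 and Calcrl parted in endoderm, where Ramp2 stayed near its cardiac mesoderm level and Calcrl was lower than in Foxa2+ CM by 4.61 on the log2 scale (adjusted p = 0.00309 by edgeR).

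Other endothelial genes accompanied the members. In Flk1+ high cells against Foxa2+ CM, 11.6% of all genes tested were higher and 22.8% differed in either direction. Among 15 tested surface and secreted genes, 12 were higher and 0 lower in Flk1+ high cells than in Foxa2+ CM, with a median log2 fold change of 2.63, led by the scavenger receptor Stab1 (5.66), the nitric oxide synthase Nos3 (4.92), Cd34 (4.90) and the gap junction gene Gja4 (4.52). Among 15 regulators, 13 were higher and 0 lower (median 1.96), led by Lyl1 (4.06), Sox7 (3.14), Fli1 (3.07) and Sox18 (2.94). Etv2, an early ETS regulator of the blood and endothelial lineage, did not pass. Blood cell markers were higher as well, 7 of 8 tested with a median of 4.31, led by Hbb-bh1 (5.70), Gfi1b (5.47), Spi1 (4.65) and Gata1 (4.37), and Gata1 was at 58.2 and 50.9 CPM against 1.75, 2.08 and 4 CPM in Foxa2+ CM. Blood markers and endothelial genes were thus both high in the Flk1+ high samples, and whether the same cells held them cannot be told apart in bulk RNA.

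**Figure D5:**
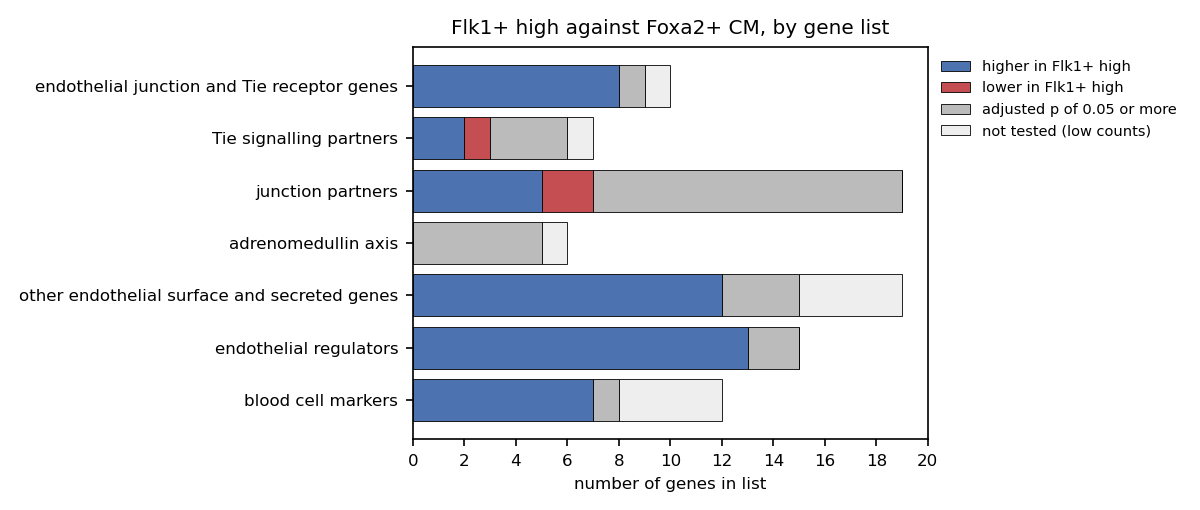
Number of genes in each list that were higher, lower or at an adjusted p of 0.05 or more in Flk1+ high cells against Foxa2+ CM, and those with too few reads to test. The members (8 higher), other endothelial genes (12), endothelial regulators (13) and blood cell markers (7) hold no gene that was lower. The Tie partners (2 higher, 1 lower of 6 tested) and junction partners (5 higher, 2 lower of 19) passed in both directions. The adrenomedullin axis (5 tested) held none that passed. Over all genes tested, 11.6% were higher and 22.8% differed in either direction.

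The genes most like the members over the 10 samples were sought among 12197 other genes averaging 50 counts or more, by the root mean square difference of centred log2 CPM from the mean profile of the members. The nearest was Rasip1 (0.236), followed by Ecscr (0.253), Mmrn2 (0.263), Smtnl1 (0.307) and Scarf1 (0.360). Mmrn2, whose product multimerin-2 lies in the endothelial matrix, was at a mean of 48.3 CPM in Flk1+ high cells, 2.07 CPM in Foxa2+ CM, 2.72 CPM in Foxa2- CM and 0.609 CPM in endoderm. By the same measure Esam (0.417) and Pecam1 (0.568) lay nearest to the members' own mean, and Cldn5 (1.23), Tie1 (1.17) and Icam2 (1.11) farthest. These 10 samples share 4 groups, so the likeness mostly restates the high level in Flk1+ high cells.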

How the data were processed

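RNA was measured in 10 samples of flow-sorted cells (3, 3, 2 and 2 per group), grouped by their labels, with no sample left out. The authors prepared TruSeq RNA v2 libraries, read 50 nt from 1 end, used STAR (version 2.5.0a, per the submitters' processing notes) for alignment to mm10, removed duplicates with Picard and counted reads with HTSeq (version 0.6.0). The strand setting is not given in the sources used here. The deposited values are raw counts per gene. Duplicate removal without molecular identifiers can compress high counts.

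Symbols came from GENCODE M21, which matched 37607 of 38924 identifiers. From the deposited counts, TMM factors, CPM and quasi-likelihood tests were computed with edgeR (version 4.0.16) in R 4.3.3, after its expression filter, with Benjamini-Hochberg adjustment over all genes tested and a threshold of 0.05. Comparisons with Flk1+ high cells or endoderm used all 10 samples in 1 model of 16180 genes, and the cardiac mesoderm comparison and the replicate-number test used 6 samples and 15284 genes. Standard errors were derived from the F statistic, as the absolute log2 fold change over its square root. Likeness used log2(CPM + 0.5). Reads not assigned to 1 gene were left out. Of the uniquely aligned reads in the deposited files, 17.1% to 25.6% had no feature and 2.18% to 2.37% were ambiguous. Entries without a unique alignment, 16624079 to 35047714 per sample, were also left out and are not part of these percentages. Exonic lengths are merged exons of M21.

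The genes named were all 10 members, the sorting markers, Angpt1, Angpt2, Ptprb, Calcrl and Adm, the 4 genes of each endothelial, partner and blood list with the largest passing change against Foxa2+ CM (the other marker lists are given as sums), and the 5 genes most like the members. Hba-x, Ptprc, Etv2, Angpt4, Mesp1, Tbx20 and the 3 catenins were named after their values were seen. The members and lists were chosen with earlier results of these data known. Tested on simulated data for Flk1+ high against Foxa2+ CM (16180 genes, of which 200 were given a log2 change of 1.5), edgeR recovered 91% and called 11 unchanged genes. Alternatives were DESeq2 (version 1.42.0) with and without its count-outlier filter, RLE size factors, no filter, a 2-fold limit, other sample sets, the replicate block, and leaving out samples.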

Additional observations from a re-analysis of the deposited data

How the results depend on the processing

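In all, 903 values of the members in the 6 group comparisons were recomputed under an alternative. Of these, 807 kept their direction and their side of the threshold, 44 lost the call, 36 gained it and 16 changed sign. All 40 group means moved by less than 1 SD when TMM factors were left out. RLE size factors and the 2-fold limit kept each number of passing members within 1.5 times. Groups of 2 and 3 samples and low reads for Cldn5 limit what the depth can show.

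With only the samples of the 2 groups compared in the model, 4 of 9 members passed for Flk1+ high against Foxa2- CM (13.9% of all genes) and 7 of 8 for endoderm against Foxa2+ CM (39.6%). DESeq2 gave no adjusted p for 6 genes in the 10-sample model, among them Tek, Tie1 and Cdh5, and called the other 6 of 6 members in each comparison of Flk1+ high cells. These 6 include Cldn5, whose calls are not independent of the expression filter. So do the counts that follow here for comparisons with Flk1+ high cells or endoderm. Of 16174 genes it called 3997 against Foxa2+ CM, 3718 against Foxa2- CM and 5371 against endoderm. With its count-outlier filter off, an alternative chosen after seeing the data, it called 9, 8 and 9 of 9 members there, where 4005, 3723 and 5377 of 16180 genes passed. It then called 5 of 9 for endoderm against Foxa2+ CM and 8 of 9 for endoderm against Foxa2- CM, where 5875 and 5080 of 16180 genes passed. DESeq2 called 1 member, Pecam1, for Foxa2+ against Foxa2- CM, with the filter or without, and 1323 genes in each case. With both samples numbered 3 left out, 7 members passed for endoderm against Foxa2+ CM (29.4% of all genes), 6 for endoderm against Foxa2- CM (24.2%) and 5 for Foxa2+ against Foxa2- CM (17.4%). The causes of these shifts were not tested.

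Leaving out each cardiac mesoderm sample in turn gave 6 to 8 passing members of 9 for Flk1+ high against Foxa2+ CM (2320 to 3711 of all genes). Against Foxa2- CM it gave 5 to 9 of 9 (2140 to 3191 genes), and against endoderm 9 of 9 (4684 to 5279 genes). For endoderm it gave 2 to 7 of 9 against Foxa2+ CM (4291 to 5700 genes) and 4 to 5 of 9 against Foxa2- CM (3655 to 4544 genes). These fits tested 15903 to 16318 genes, and the 9 members include Cldn5. For Foxa2+ against Foxa2- CM it gave 0 to 2 of 8 (234 to 1701 genes). For the replicate numbers it gave 5 to 8 of 8 (890 to 2838 genes). Fits with 1 Flk1+ high or endoderm sample are not counted here.

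The replicate numbers were checked as pairs: deviations of same-numbered Foxa2+ and Foxa2- CM samples correlated at 0.525, 0.0986 and 0.619, so not every pair was above 0.1 and the samples were treated as sharing only a number. Number 2 of Foxa2+ CM correlated about as well with number 1 of Foxa2- CM (0.0983). With the replicate block, 1 of 8 members passed for Foxa2+ against Foxa2- CM, Pecam1 (log2 fold change -1.46, adjusted p = 0.00138 by edgeR), and 2556 genes passed instead of 990. The block left the numbers of passing members for Flk1+ high cells at 8, 9 and 9, at 3 for endoderm against Foxa2+ CM, and at 5 instead of 4 against Foxa2- CM.

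The values that changed sign had not passed with all samples. For Foxa2+ against Foxa2- CM, Tek came to 0.01 with the replicate block, to 1.80 without Foxa2- CM replicate 3 and to 1.19 without both samples numbered 3. Under the last 2 settings Tie1 came to 2.49 and 1.56, Cdh5 to 1.84 and 1.36 and Esam to 0.99 and 0.67. Egfl7 came to -0.07, -0.05 and -0.07 and Ramp2 to -0.19, -0.09 and -0.20 without Foxa2+ CM replicate 3, Foxa2- CM replicate 1 and Foxa2- CM replicate 2. Over all fits without 1 sample, Tek ran from -1.10 to 1.80, Tie1 from -2.81 to 2.49, Cdh5 from -1.43 to 1.84, Esam from -0.70 to 0.99, Egfl7 from -0.07 to 0.40 and Ramp2 from -0.20 to 0.58. For endoderm against Foxa2+ CM, Ramp2 came to -0.02 without endoderm replicate 1 and to at most 0.53 in the other fits without 1 sample.

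Over all genes, the number passing for Foxa2+ against Foxa2- CM was 990, against 460 with the 2-fold limit, 288 with all 10 samples in the model, 2632 without both samples numbered 3 and 234 to 1701 when 1 sample was left out. For the replicate numbers it was 1170, against 726 with DESeq2, 2350 without the expression filter and 890 to 2838 when 1 sample was left out. The 2-fold limit gave 1848, 1884 and 3098 instead of 3685, 3492 and 5276 genes for Flk1+ high against Foxa2+ CM, Foxa2- CM and endoderm, and 3032 and 2749 instead of 5661 and 4876 for endoderm against Foxa2+ and Foxa2- CM. With only the samples compared, 2159 and 2675 genes passed for Flk1+ high against Foxa2- CM and endoderm. When 1 sample was left out, the fewest were 2320 and 2140 for Flk1+ high against Foxa2+ and Foxa2- CM and 3606 and 3015 for endoderm against them.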
